A study of Homo sapiens with 6 samples.

Results

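The genes described here are 42 targets of the tumour suppressor p53 and regulators of apoptosis, listed by name: members of the BCL2 family, death receptors, caspases, inhibitor of apoptosis proteins, and p53 targets in feedback, metabolism and DNA repair. Of the 42 genes, 39 had a named probe and 35 had one with a mean log2 signal of at least 7 over the arrays, the minimum set for testing. Over the whole array, 18665 genes had a named probe and 10503 were tested. The probe with the highest mean signal represented its gene, and the other probes of a gene are given where they bear on it.

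LNCaP, a human prostate cancer line that responds to androgen and retains wild-type p53, was transfected for 24 h with 30 nM of a synthetic miR-331-3p precursor or of the negative control precursor miR-NC. Both groups therefore share the line, the lipid transfection and the dose, and neither contains untransfected cells. Gene expression was measured on Illumina Human-6 v3 arrays, with 3 arrays labelled miR-331-3p (A, B and C) and 3 labelled miR-NC (A, B and C). Profiling was in triplicate by the methods, but nothing in the labels says that the 3 arrays of a group came from separate cultures, so a p-value sets the difference against a spread that may be technical.

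In a stressed cell p53 switches on genes that stop the cell cycle, repair DNA or start apoptosis, and it also switches on MDM2, the ubiquitin ligase that leads to its own destruction. In the mitochondrial route to apoptosis, BH3-only proteins such as NOXA (PMAIP1) and PUMA (BBC3) neutralise survival proteins such as BCL2 and BCL-XL (BCL2L1), which frees BAX and BAK (BAK1) to open the outer mitochondrial membrane. Released cytochrome c (CYCS) assembles with APAF1 and caspase-9, while SMAC (DIABLO) relieves caspases of their inhibitors. The receptor route starts at FAS or at the TRAIL receptors (TNFRSF10A, TNFRSF10B) and passes through FADD and caspase-8.

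The transfected microRNA is shown as RefSeq lists it, since its seed (bases 2 to 8, in capitals) is what decides which messages it pairs with. The sequence shown lies on the plus strand at chr12:95308480-95308500 of GRCh38.p14.
miR-331-3p: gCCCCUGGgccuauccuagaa

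Sites for p53 are shown because the gene list is built around its targets. A full site was taken as 2 copies of the 10-base p53 consensus, with at most 10 bases between them, both C and G cores intact and at most 2 of the 20 letters off. The consensus reads the same on both strands. In windows from 250 bases before to 50 bases after each gene start in RefSeq (GRCh38.p14), such a match was found for 5 of the 33 genes of the list that have a window (15.2%), against 789 of 27305 genes with a window (2.89%). The list includes genes chosen because p53 binds them, so the 2 shares are a description. The capitals below mark the 10-base copies. The DDB2 match, at chr11:47214979-47214999 (plus strand), starts 5 bases after the gene start and has all 20 letters. The MDM2 match at chr12:68808923-68808942 (plus strand), the BAK1 match at chr6:33580328-33580349 (minus strand) and the FAS match at chr10:88991309-88991328 (plus strand) lie upstream of a gene start and have 18 letters each, as does the match of FDXR, a p53 target with no named probe on the array, at chr17:74872996-74873025 (minus strand). A match is not proof of a site, and nothing here measured binding.
DDB2: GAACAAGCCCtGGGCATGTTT
MDM2: GGTCAAGTTCAGACACGTTC
BAK1: GGACATGCTCctGGGCCTGGCC
FAS: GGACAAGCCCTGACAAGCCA
FDXR: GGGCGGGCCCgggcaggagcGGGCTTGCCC

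Signals were log2 values between 6.52 and 13.94, with the same median, 6.872, on every array. The array miR-331-3p C stood apart. Over the probes with a mean of at least 7, it correlated with the other arrays at 0.982 to 0.991. The remaining pairs correlated at 0.990 to 0.996. The luminal prostate markers that had a named probe were all at the minimum signal or above (9 of 9, mean signals 8.27 to 13.10), and of 7 markers of basal, stromal and blood cells only COL1A1 reached it, at 7.24. In bulk RNA, fewer cells of a type and less RNA per cell cannot be told apart. Under the labels, 7 candidate target genes followed in the study were all higher on the miR-331-3p arrays, by log2 differences of 0.63 to 1.19. That direction is the opposite of the one the paper gives for them. The range of sizes was close to that of the array fold decreases the paper lists for the same genes. Whether the labels are exchanged was not tested. Every signed value below rests on the labels: were they exchanged, every sign would turn.

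In the arrays labelled miR-331-3p, 3 of the 35 genes were higher by limma's test with Benjamini-Hochberg adjustment over all probes, and none was lower. They were BCL2L1, BAK1 and TNFRSF10A, which code for a survival protein, a pore-forming effector and a death receptor. This is 8.57% of the genes tested, against 9.18% of all named genes with 1 probe each (5.16% higher and 4.02% lower), so the share called in the list was near that over the array. At an unadjusted p under 0.05, 8 genes were higher and 1, CYCS, was lower, where 24.5% of all named genes passed. After adjustment, the methods' t-test called 0 of the 35 genes in either direction, against 1.17% of all named genes.

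Differences were small. The log2 differences of the 35 genes ran from -0.21 for CYCS to 0.47 for BCL2L1, with a median of 0.03, and all 35 lay under a 1.5-fold change. Over all named genes the median was 0.0044 and the 5th and 95th percentiles were -0.30 and 0.32. The median size of the difference, without its sign, was 0.12 in the list and 0.10 over all named genes. The 3 arrays of each group did not overlap for 9 genes, higher for BCL2L1, BCL2L2, BAK1, PMAIP1, BID, BIK, TNFRSF10A and APAF1 and lower for CYCS, against 28.7% of all named genes.

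**Figure D1:**
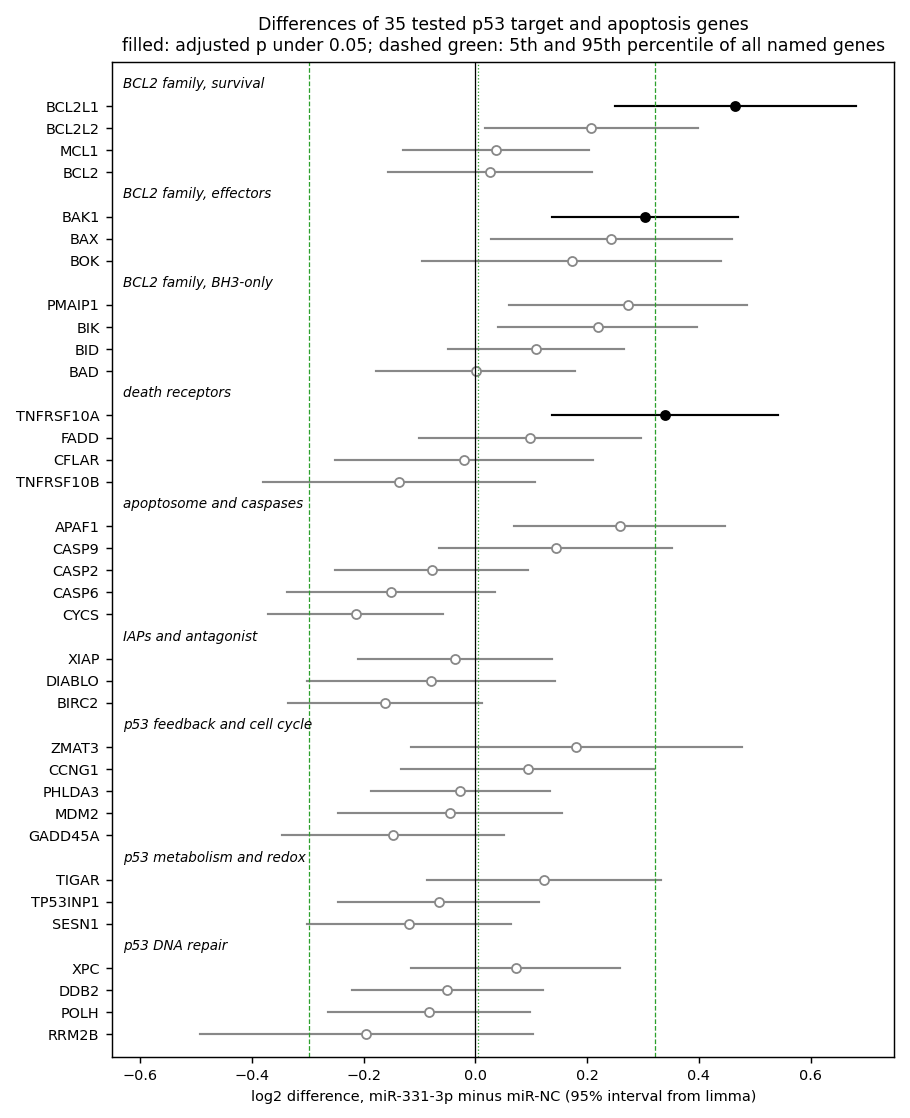
Log2 difference (miR-331-3p minus miR-NC, x axis) of the 35 tested genes, grouped by role, with points for the estimate and lines for limma's 95% interval; filled points have an adjusted p under 0.05, the dotted line is the median of all named genes and the dashed lines are their 5th and 95th percentiles, -0.30 and 0.32. The 3 filled points, BCL2L1, BAK1 and TNFRSF10A, lie to the right of 0, and the estimates of all 11 BCL2 family genes lie at or to the right of 0.

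The BCL2 family sets whether the mitochondrial membrane holds. Of its 13 listed genes 11 were tested, 2 were higher on the miR-331-3p arrays and 0 were lower (6 higher and 0 lower at an unadjusted p under 0.05, 0 by the methods' t-test after adjustment). Over all named genes 5.16% were higher after adjustment and 12.6% without it. The estimates of all 11 were positive, against 51% of all named genes, with a median of 0.21, although those of BAD and BCL2 were close to 0 and turned negative with array weights, as did those of MCL1 and BAD with the mean of all their probes and those of BCL2, MCL1 and BAD without some single arrays. Some of these genes protect the cell and others kill it, and genes of both kinds were among those higher on the arrays labelled miR-331-3p.

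BCL2L1 codes for BCL-XL, a survival protein, and by another splice form for the death-promoting BCL-XS. Its brighter probe read 11.48, 11.32 and 11.19 on miR-NC A, B and C and 11.66, 11.79 and 11.94 on miR-331-3p A, B and C. Every array labelled miR-331-3p was above every array labelled miR-NC. Means were 11.80 ± 0.14 and 11.33 ± 0.15 (SD, n = 3), and the log2 difference was 0.47 (SE 0.098, limma 95% interval 0.25 to 0.68, adjusted p = 0.015), or 1.38-fold. The second probe read 7.93, 7.95 and 7.77 on the miR-NC arrays and 8.40, 8.05 and 7.28 on the miR-331-3p arrays. Here the groups overlapped, miR-331-3p C was the lowest of all, and the difference was 0.02 (95% interval -0.44 to 0.49). The adjusted p of the brighter probe was 0.055 without miR-331-3p B, 0.065 without miR-NC B and 0.078 without miR-NC C, and with the mean of both probes it was 0.21.

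BAK1 codes for BAK, which sits in the mitochondrial outer membrane and forms pores in it. It read 7.61, 7.61 and 7.65 on miR-NC A, B and C and 7.84, 7.90 and 8.03 on miR-331-3p A, B and C. The groups did not overlap, and the miR-NC arrays lay within a narrow band. The difference was 0.30 (means 7.92 ± 0.095 and 7.62 ± 0.027, SD, n = 3; SE 0.076, 95% interval 0.14 to 0.47, limma adjusted p = 0.033), or 1.23-fold. The call held without miR-331-3p A and was lost without any of the other 5 arrays, at adjusted p-values from 0.062 to 0.12.

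BAX, the effector that moves from the cytosol to mitochondria, read 10.16, 9.86 and 9.88 on the miR-NC arrays and 10.10, 10.19 and 10.34 on the miR-331-3p arrays. The groups overlapped through miR-NC A, and the difference of 0.24 (95% interval 0.03 to 0.46, limma adjusted p = 0.17) did not pass. A second BAX probe gave 0.15 (limma adjusted p = 0.42). BOK, a related effector, gave 0.17 (95% interval -0.10 to 0.44).

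Among the other survival genes, BCL2L2, which codes for BCL-W, read 9.70, 9.53 and 9.39 on the miR-NC arrays and 9.74, 9.73 and 9.78 on the miR-331-3p arrays. Its groups did not overlap, but the gap between miR-NC A and the lowest miR-331-3p array was narrow, and the difference of 0.21 (95% interval 0.02 to 0.40, limma adjusted p = 0.19) did not pass. BCL2 itself was the dimmest gene tested, just above the minimum at a mean of 7.01, and gave 0.03 (95% interval -0.16 to 0.21) from readings of 6.90, 7.03 and 7.05 against 7.04, 6.90 and 7.12. MCL1, a short-lived survival protein, read 9.11, 9.13 and 9.16 against 9.13, 9.11 and 9.28, a difference of 0.04 (95% interval -0.13 to 0.20). The groups of both genes overlapped. The second MCL1 probe gave -0.22 (limma adjusted p = 0.47), with miR-331-3p C the lowest array at 7.60.

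No BH3-only gene passed, where 9.18% of all named genes did. Of 6 listed, 4 were tested and all 4 estimates were positive, against 51% of all named genes. Their median was 0.16. PMAIP1, which codes for the p53 target NOXA, read 7.40, 7.33 and 7.44 on the miR-NC arrays and 7.51, 7.88 and 7.61 on the miR-331-3p arrays. The groups did not overlap, and miR-331-3p B was the highest. The difference was 0.27 (95% interval 0.06 to 0.49, limma adjusted p = 0.12), and its second probe gave 0.23 (limma adjusted p = 0.24). With array weights, which count miR-331-3p C for less, the first probe's adjusted p was 0.048. BIK, a BH3-only protein of the endoplasmic reticulum, read 8.74, 8.61 and 8.85 against 8.90, 9.003 and 8.96, a difference of 0.22 (95% interval 0.04 to 0.40, limma adjusted p = 0.13). BID, which links caspase-8 to mitochondria, gave 0.11 (95% interval -0.05 to 0.27), and its second probe gave 0.23 (limma adjusted p = 0.11). BAD, a BH3-only protein switched off by survival kinases, gave 0.0006 (95% interval -0.18 to 0.18), and its other probes gave -0.16 and -0.15. BBC3, which codes for PUMA, was below the minimum and was not tested, with readings of 6.69, 6.89 and 6.77 on the miR-NC arrays and 6.79, 6.86 and 6.87 on the miR-331-3p arrays (mean 6.81). BCL2L11, which codes for BIM, was just outside it, and its brightest probe read 6.97, 6.87 and 6.99 against 6.99, 7.05 and 6.83 (mean 6.95). The groups overlapped at both genes.

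**Figure D2:**
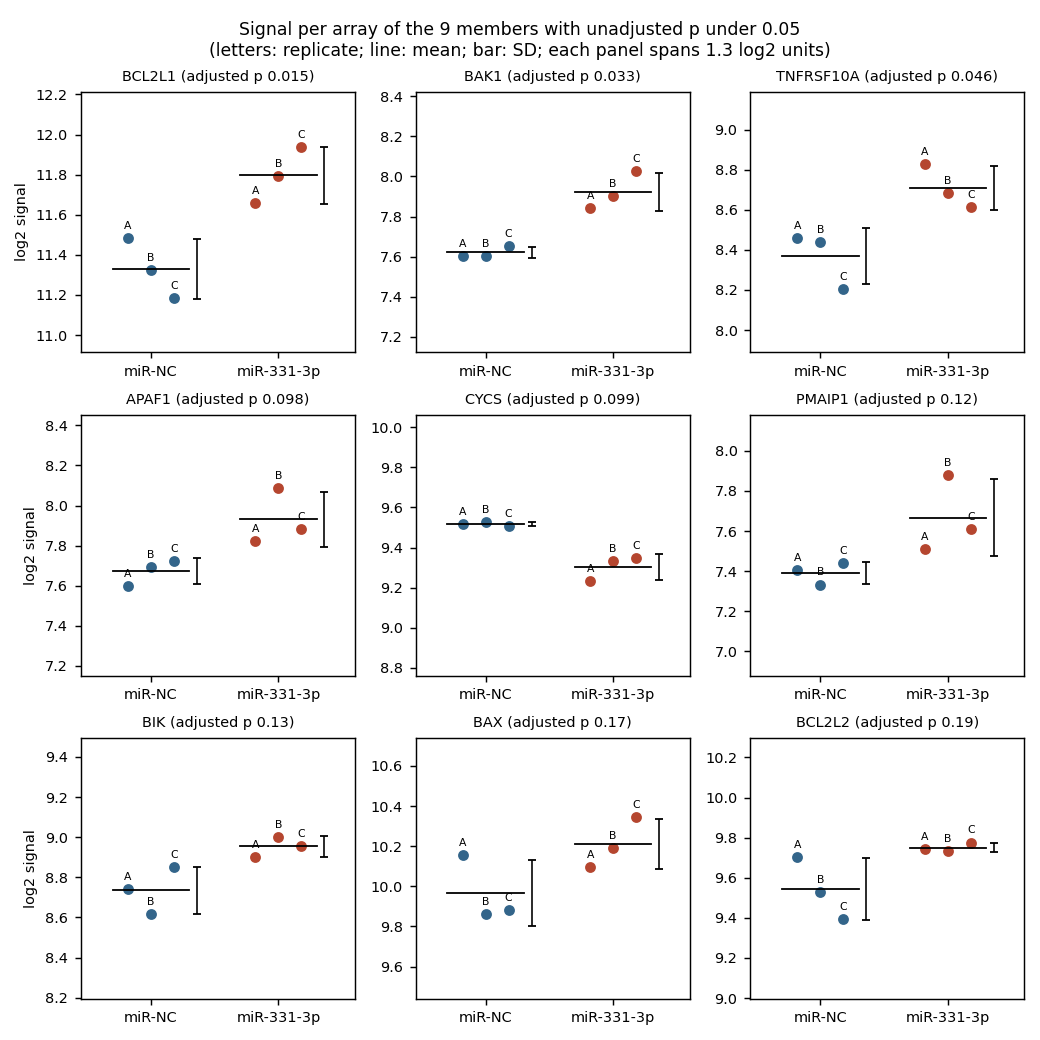
Log2 signal (y axis, each panel spanning 1.3 log2 units) on each array for the 9 genes with an unadjusted p under 0.05 in limma, blue for miR-NC and red for miR-331-3p, with replicate letters, a line for the mean and a bar for the SD (n = 3 per group). The groups overlap for BAX, through miR-NC A, and for none of the other 8, and CYCS is the one panel in which the miR-331-3p arrays are lower.

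In the receptor and caspase part of the pathway, 12 of 15 listed genes were tested, 1 was higher and 0 were lower (2 higher and 1 lower at an unadjusted p under 0.05, 0 by the methods' t-test after adjustment), with a median difference of -0.06. This is 8.33% called, against 9.18% of all named genes, of which 24.5% passed without adjustment. TNFRSF10A, the TRAIL receptor DR4, read 8.46, 8.44 and 8.21 on miR-NC A, B and C and 8.83, 8.68 and 8.61 on miR-331-3p A, B and C. All miR-331-3p arrays were above all miR-NC arrays. The difference was 0.34 (means 8.71 ± 0.11 and 8.37 ± 0.14, SD, n = 3; SE 0.092, 95% interval 0.14 to 0.54, limma adjusted p = 0.046), or 1.26-fold. The call held without miR-331-3p C and was lost without any of the other 5 arrays (adjusted p from 0.071 to 0.18), with no signal minimum (0.080), after cyclic loess (0.053) and with an intensity trend in the variance (0.058).

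TNFRSF10B, the other TRAIL receptor that transmits a death signal and a p53 target, read 11.05, 10.99 and 11.05 against 10.61, 11.01 and 11.06. One array, miR-331-3p A, was low and the rest lay close together, so the groups overlapped. The difference was -0.14 (95% interval -0.38 to 0.11), with -0.13 and 0.06 at its other probes, and whether it differed from that of TNFRSF10A was not tested. The adaptor FADD gave 0.10 (95% interval -0.10 to 0.30) and CFLAR, which codes for the caspase-8 inhibitor FLIP, gave -0.02 (95% interval -0.25 to 0.21). The receptor FAS and the initiator CASP8 had highest probe means of 6.75 and 6.87 and were not tested.

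At the apoptosome, the scaffold APAF1 and its activator CYCS had estimates of opposite sign, and neither passed the adjusted threshold. APAF1 read 7.60, 7.70 and 7.72 on the miR-NC arrays and 7.82, 8.09 and 7.88 on the miR-331-3p arrays, a difference of 0.26 (95% interval 0.07 to 0.45, limma adjusted p = 0.098, and 0.045 with array weights). CYCS, which codes for cytochrome c, read 9.52, 9.53 and 9.51 against 9.23, 9.33 and 9.35, a difference of -0.21 (95% interval -0.37 to -0.06, limma adjusted p = 0.099). The groups of both genes did not overlap, and the miR-NC readings of CYCS were almost equal. The initiators CASP9 and CASP2 gave 0.14 (limma adjusted p = 0.43) and -0.08 (limma adjusted p = 0.63). The executioner CASP6 gave -0.15 (limma adjusted p = 0.34), with -0.18 and 0.06 at its other probes.

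Of the caspase inhibitors, XIAP, which binds caspases directly, gave -0.04 (95% interval -0.21 to 0.14). Its mean signal, 7.18, lay close to the minimum. BIRC2, which codes for the ubiquitin ligase cIAP1, gave -0.16 (95% interval -0.34 to 0.01) and -0.26 at its second probe (limma adjusted p = 0.25).

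DIABLO, which codes for the inhibitor antagonist SMAC, gave different results at its 3 tested probes. The brightest read 11.63, 11.72 and 11.79 on the miR-NC arrays and 11.82, 11.42 and 11.66 on the miR-331-3p arrays, so the groups overlapped with a difference of -0.08 (limma adjusted p = 0.72). The second read 10.01, 10.14 and 9.99 against 9.72, 9.66 and 9.80. It was lower on every miR-331-3p array (9.73 ± 0.07 against 10.05 ± 0.085, SD, n = 3), with a difference of -0.32 (SE 0.078, 95% interval -0.49 to -0.15, limma adjusted p = 0.029). The third read 8.15, 8.25 and 8.11 against 8.12, 7.92 and 7.60, with miR-331-3p C the lowest array and a difference of -0.29 (limma adjusted p = 0.17). The difference between the second and the brightest probe, taken within each array, shifted by -0.24 between the groups and that of the third by -0.21, with an exact two-sided permutation p of 0.2 for each. The call of the second probe held without miR-331-3p C and was lost without any of the other 5 arrays (adjusted p from 0.063 to 0.13).

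Of the 14 listed p53 targets in feedback, metabolism and repair, 12 were tested, and at the brightest probe none passed in either direction (limma; 0 at an unadjusted p under 0.05 and 0 by the methods' t-test after adjustment). Over all named genes, 9.18% passed after adjustment and 24.5% without it. The differences of the 12 genes ran from -0.20 to 0.18, with a median of -0.05. ZMAT3, which codes for a p53-induced RNA-binding zinc finger protein, was the exception once its other probes were considered.

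The brightest ZMAT3 probe read 11.64, 11.16 and 11.04 on miR-NC A, B and C and 11.41, 11.60 and 11.38 on miR-331-3p A, B and C. The groups overlapped, since miR-NC A was the highest array, and the difference was 0.18 (95% interval -0.12 to 0.48, limma adjusted p = 0.49). The second probe read 9.71, 9.67 and 9.67 against 9.07, 8.79 and 8.82. Every miR-331-3p array was lower than every miR-NC array (8.90 ± 0.15 against 9.68 ± 0.022, SD, n = 3), and the difference was -0.79 (SE 0.087, 95% interval -0.98 to -0.60, limma adjusted p = 0.00035), or 1.73-fold. The third read 9.51, 9.37 and 9.34 against 8.61, 8.59 and 8.76. It too was lower on every miR-331-3p array (8.65 ± 0.092 against 9.41 ± 0.094), by -0.75 (SE 0.082, 95% interval -0.93 to -0.58, limma adjusted p = 0.00032), or 1.69-fold.

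These were the only probes among the 55 tested for the listed genes to differ by over 1.5-fold, and their calls held without each of the 6 arrays in turn. They did not pass the methods' t-test after adjustment (0.060 and 0.053). Within an array the second probe minus the brightest gave -1.93, -1.495 and -1.37 on the miR-NC arrays and -2.34, -2.81 and -2.56 on the miR-331-3p arrays. That difference shifted by -0.97 between the groups, and the corresponding one for the third probe by -0.94. Neither overlapped between groups, and the exact two-sided permutation p was 0.1 for each, the smallest that 3 arrays against 3 can give. In all, 20 such probe pairs were compared over 15 genes, and 4 pairs of other genes also did not overlap and had that same p, with smaller shifts of 0.12 for BID, 0.19 for TNFRSF10B, 0.13 for CASP2 and 0.21 for CASP6. Adjusted over the 20 pairs, the p of all 6 was 0.33. The sequences of the 3 probes were not available here, so the probes were not placed on ZMAT3 transcripts. With the mean of the 3 probes ZMAT3 was lower, by -0.45 (limma adjusted p = 0.0081).

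**Figure D3:**
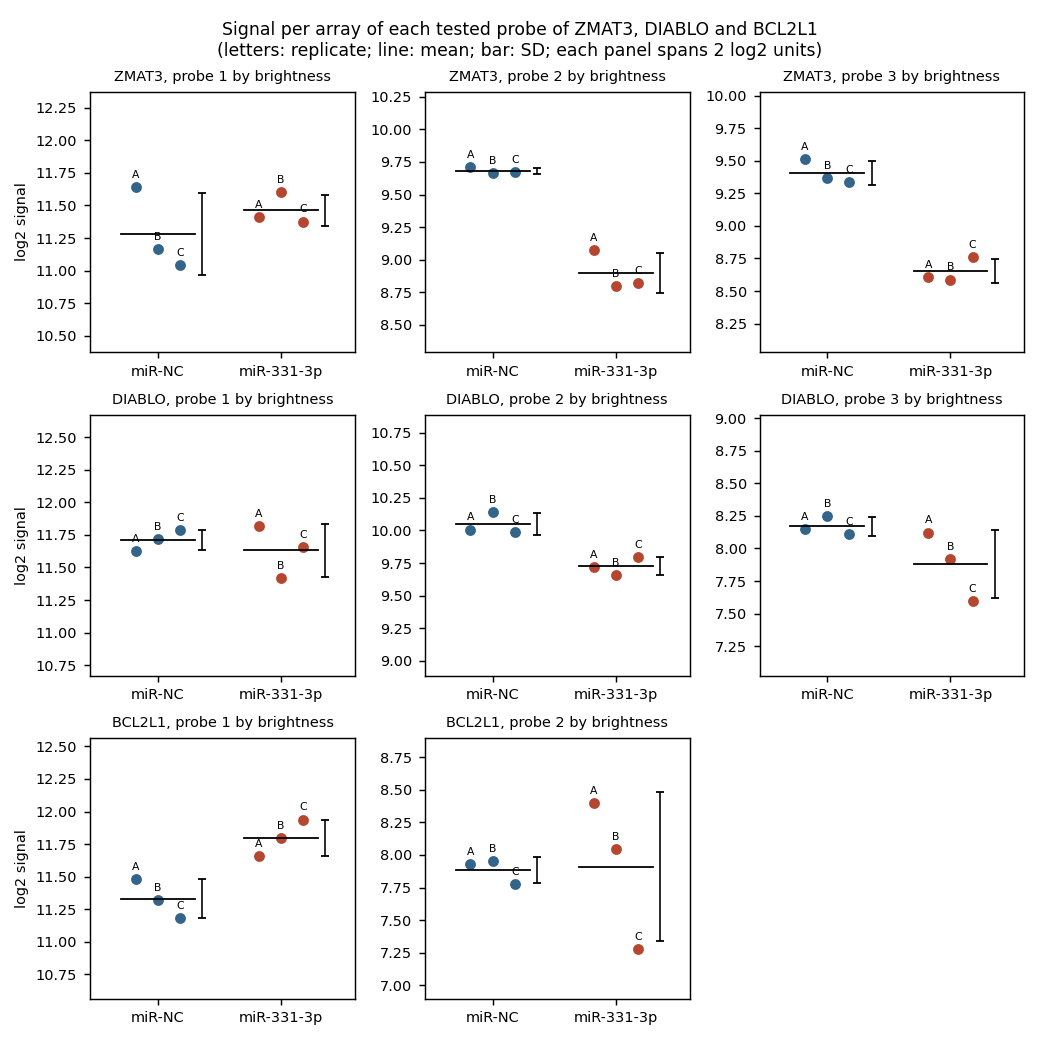
Log2 signal (y axis, each panel spanning 2 log2 units) on each array for every tested probe of ZMAT3, DIABLO and BCL2L1, ordered by brightness, blue for miR-NC and red for miR-331-3p, with replicate letters, a line for the mean and a bar for the SD (n = 3 per group). The second and the third ZMAT3 probes separate the groups by -0.79 and -0.75 while the brightest does not, and the second BCL2L1 probe spreads from 7.28 to 8.40 over the miR-331-3p arrays.

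The remaining p53 targets did not pass. MDM2, the classical p53 target, read 7.13, 7.07 and 7.05 on the miR-NC arrays and 7.21, 7.04 and 6.87 on the miR-331-3p arrays. The miR-331-3p arrays were both the highest and the lowest, and the difference was -0.05 (95% interval -0.25 to 0.15). DDB2, the damage sensor whose window holds the 20-letter match printed above, read 7.20, 7.10 and 7.20 against 7.05, 7.08 and 7.23, a difference of -0.05 (95% interval -0.22 to 0.12). Both genes lay close to the minimum signal.

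In cell cycle control, GADD45A, a stress sensor that acts on growth arrest and repair, gave -0.15 (95% interval -0.35 to 0.05) and -0.21 at its second probe (limma adjusted p = 0.17). CCNG1, which codes for cyclin G1, gave 0.09 (95% interval -0.13 to 0.32), and PHLDA3, an inhibitor of AKT, gave -0.03 (95% interval -0.19 to 0.13). Of the metabolic targets, TIGAR, which lowers glycolysis, gave 0.12 (95% interval -0.09 to 0.33). SESN1, a sestrin that restrains mTORC1, gave -0.12 (95% interval -0.30 to 0.06), and TP53INP1, which takes part in p53-dependent stress responses, gave -0.07 (95% interval -0.25 to 0.11) and 0.16 at its second probe.

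Among the repair genes, RRM2B, the p53-induced subunit of ribonucleotide reductase, read 8.94, 9.05 and 9.23 on the miR-NC arrays and 9.13, 8.97 and 8.54 on the miR-331-3p arrays. It had the widest spread of the 35 genes within the miR-331-3p group (SD 0.31), set by the low reading of miR-331-3p C, and its difference was -0.20 (95% interval -0.49 to 0.10). The damage sensor XPC gave 0.07 (95% interval -0.11 to 0.26) and POLH, a polymerase that copies past ultraviolet lesions, gave -0.08 (95% interval -0.26 to 0.10). POLH also lay close to the minimum signal, at a mean of 7.14.

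Over all 55 tested probes of the listed genes, 3 were higher and 3 were lower (10.9%), against 7.96% of all probes tested (4.3% higher and 3.66% lower), with a median difference of -0.02. The 3 lower ones were the second and the third ZMAT3 probes and the second DIABLO probe. Of the 15 genes with several tested probes, 7 had estimates of both signs: MCL1, BAD, TNFRSF10B, CASP2, CASP6, ZMAT3 and TP53INP1. Some of these probes lay close to the minimum signal, such as the dimmer CASP6 probes (means 7.09 and 7.05) and the dimmest TNFRSF10B probe (7.01). Those of MCL1, CASP2, ZMAT3 and TP53INP1 did not, the dimmest being an MCL1 probe at 8.16.

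The rest of the pathway was described with 5 further lists, which share no gene with the first. Together, 55 of their 77 genes were tested, 3 were higher and 2 were lower (9.09%, against 9.18% of all named genes), with a median difference of -0.02. All 3 higher genes were in the list of further BCL2 family genes and BNIP genes. Of its 12 genes 9 were tested and 0 were lower (33.3% called, from a short list, against 9.18% of all named genes). BNIP2, which binds BCL2, gave 0.44 (SE 0.091, limma adjusted p = 0.015), BCL2L13, a mitochondrial BCL2-like protein, gave 0.39 (SE 0.093, limma adjusted p = 0.029), and BNIPL, a relative of BNIP2, gave 0.29 (SE 0.08, limma adjusted p = 0.048). The groups did not overlap for these 3 genes, and the list's median was 0.0008.

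Of the regulators of p53, 12 of 14 were tested, with a median of -0.05. Of these, 0 were higher and 1 was lower (8.33% called, against 9.18% of all named genes). This was ATM, the kinase that activates p53 after DNA breaks, which read 8.31, 8.26 and 8.21 on the miR-NC arrays and 8.03, 7.94 and 7.88 on the miR-331-3p arrays, a difference of -0.31 (SE 0.075, limma adjusted p = 0.031). The groups did not overlap, and its second probe gave -0.21 (limma adjusted p = 0.13). Of the other death receptor and inhibitor genes, 6 of 12 were tested and BIRC5, which codes for survivin and rises in dividing cells, was lower at 9.29, 9.21 and 9.58 against 9.88, 9.71 and 9.73, a difference of -0.42 (SE 0.10, limma adjusted p = 0.029). A second BIRC5 probe gave -0.28 (limma adjusted p = 0.055). With BIRC5, 16.7% of the genes tested in that short list were called, against 9.18% of all named genes. An earlier result for BIRC5 was known when the list was drawn, so that share is only a description.

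None of the 20 other p53 targets tested, of 24 listed, passed (limma; 5 higher and 2 lower at an unadjusted p under 0.05, 0 by the methods' t-test after adjustment), with a median of 0.07. Over all named genes, 9.18% passed after adjustment and 24.5% without it. CDKN1A, the best known p53 target and chosen here after its values were seen, gave 0.11 (95% interval -0.10 to 0.33, limma adjusted p = 0.55). None of the 8 other caspase and executioner genes tested, of 15 listed, passed either. At an unadjusted p under 0.05 in limma, 1 was higher and 1 lower, and 0 passed by the methods' t-test after adjustment. The median of the 8 was -0.07, beside the same shares over all named genes. Without some single arrays the 5 calls of these lists were lost: BNIP2 without miR-331-3p B, miR-NC A or miR-NC C (adjusted p up to 0.073), BCL2L13 without miR-331-3p A or any miR-NC array (up to 0.11), BNIPL and ATM without any array but miR-331-3p A (up to 0.16 and 0.10), and BIRC5 without any array but miR-331-3p C (up to 0.11).

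**Figure D4:**
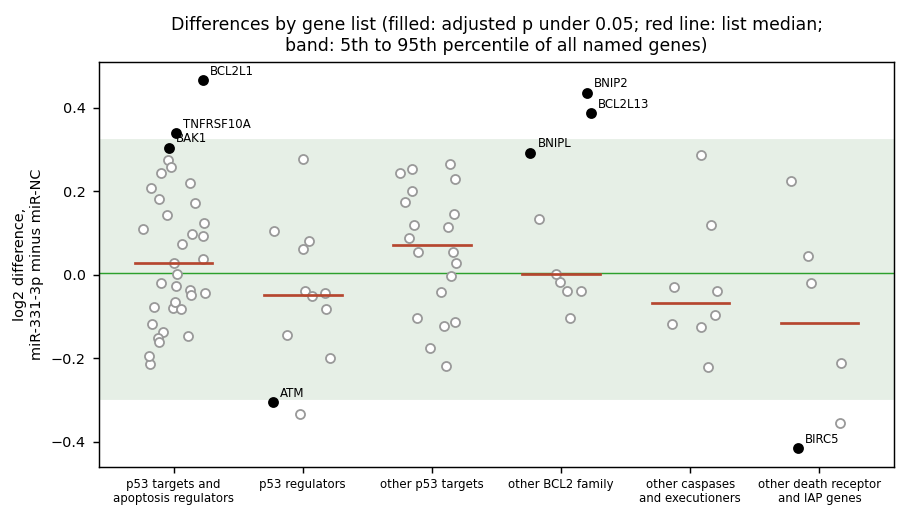
Log2 difference (miR-331-3p minus miR-NC, y axis) of each tested gene in the p53 target and apoptosis list and in the 5 further lists, with 1 point per gene, a red line for the list's median, filled points for an adjusted p under 0.05 in limma and a band from the 5th to the 95th percentile of all named genes. The medians run from -0.12, for the other death receptor and inhibitor genes, to 0.07, for the other p53 targets, and 8 filled points are named.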

How the data were processed

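The authors deposited log2 values for 6 Illumina Human-6 v3 arrays, background corrected and variance stabilized with lumi and then quantile normalized in Partek Genomics Suite, per the paper's methods. The 12 columns of a raw table could not be matched to samples by name and were left out. Of 48802 probes, 27577 carry 1 gene symbol in the platform annotation, 13 several and 21212 none; 27540 were looked up by gene identifier in RefSeq (GRCh38.p14). Those whose signal averaged 7 or more (16752) entered limma 3.58.1 (lmFit and eBayes, no block; R 4.3.3), with two-sided p-values adjusted by Benjamini-Hochberg over the 16752 probes and a threshold of 0.05. Other steps used Python 3.11.15, pandas 2.3.3 and matplotlib 3.10.9.

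The listed genes and the further lists were chosen with earlier results of these data known. The genes given array by array were those with an unadjusted p under 0.05, 8 central genes (MDM2, BAX, BBC3, PMAIP1, BCL2, BCL2L1, BCL2L11 and MCL1), and those with the highest or lowest signal or the widest spread; TNFRSF10B and DDB2 were added after their values were seen. Expression of BIRC3, BTG2 and FDXR was not analysed here. Alternatives were a minimum of 7.5 and none, cyclic loess, an intensity trend in the variance, array weights, the methods' t-test, the mean of all probes, a replicate block, and leaving out each array. The number of arrays limits the precision.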

Additional observations from a re-analysis of the deposited data

How the results depend on the processing

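With 3 arrays in each group, differences of the size seen here, mostly under 1.5-fold, passed or missed the threshold with small changes in the fit. Of 640 alternative values for the named probes, 558 kept their direction and their side of the threshold, 59 kept the direction but no longer passed, 3 came to pass and 20 changed sign. All 59 fell on probes that passed in the main fit, since the others had no call to lose. The 640 values therefore do not measure how stable the calls were. The causes were not tested. The methods' t-test left 115 probes higher and 49 lower, against 720 and 613, and 0 of the listed genes and 0 of the further pathway genes in either direction. With array weights 5 listed genes were higher, against 3, and of the further pathway genes 5 were higher and 4 lower, against 3 and 2. With no signal minimum 1 further pathway gene was higher and 1 lower. With the mean of all probes of a gene, 1 listed gene (ZMAT3) and 1 further pathway gene were lower. Without 1 array at a time, the fit called 363 to 765 probes higher and 263 to 697 lower, 0 to 2 listed genes higher, and 0 to 3 further pathway genes higher and 0 to 3 lower. The median difference of the listed genes, 0.0266, was 0.0722 with a minimum of 7.5, -0.0199 with the mean of all probes and -0.0039 to 0.0681 without single arrays. The median of the further pathway genes, -0.0179, was 0.0008 with no minimum, -0.0026 with the mean of all probes and -0.0333 to 0.0147 without single arrays.

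Signs turned at genes whose interval included 0. With array weights BCL2 was -0.0237, BAD -0.0208 and CFLAR 0.0059. With the mean of all probes MCL1 was -0.0939, BAD -0.1018, TP53INP1 0.049 and ZMAT3 -0.4533, the last with an adjusted p of 0.0081. Without single arrays the range was -0.0228 to 0.0877 for BCL2, -0.0163 to 0.0681 for MCL1, -0.0451 to 0.056 for BAD, -0.223 to 0.0068 for TNFRSF10B, -0.152 to 0.0567 for CFLAR, -0.1732 to 0.0271 for DIABLO, -0.1309 to 0.0411 for MDM2 and -0.0468 to 0.0081 for PHLDA3.

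Deviations of same-letter arrays from their group means correlated at -0.04, 0.02 and 0.22, and only C correlated best with its own letter. Deviations from means of 3 arrays depend on each other, so these values cannot tell whether the replicate letters pair the arrays. A replicate block gave 742 probes higher and 670 lower, against 720 and 613 without it, and 3 listed genes higher and 0 lower.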
